A study of Homo sapiens with 8 samples.

Results

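The genes described are 5 secreted matrix metalloproteinases (MMP1, MMP3, MMP9, MMP10 and MMP13), the membrane-anchored metalloproteinase MMP14, the urokinase gene PLAU, its receptor PLAUR and the inhibitors TIMP1 and TIMP2. They were taken by symbol from the deposited expression table, and all 10 were found among its 28281 genes. The RNA came from KYSE70, a long-established line grown from a human esophageal squamous cell carcinoma. The series title names both compounds as NRF2 inhibitors, and the groups were cells given 20 nM mitoxantrone for 72 h (n = 3), cells given 10 µM pyrimethamine for 72 h (n = 2) and untreated cells (n = 3). All groups were grown in RPMI1640 with fetal bovine serum, penicillin and streptomycin, and no vehicle is named for the untreated cells. Mitoxantrone is an anticancer drug that traps topoisomerase II on cut DNA, and pyrimethamine is an antiparasitic inhibitor of dihydrofolate reductase. Nothing in the labels says that replicates were separate cultures, and the p-values therefore reflect only how far these libraries spread, which may be technical.

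Matrix metalloproteinases are zinc endopeptidases that are made as inactive proenzymes and cleave collagens, laminins and other matrix proteins once the propeptide is removed. Urokinase, held at the cell surface by its receptor, turns plasminogen into plasmin, which degrades fibrin and activates several MMP proenzymes. The TIMPs bind the active site of MMPs, and TIMP2 together with MMP14 also forms the surface complex that activates pro-MMP2. In squamous carcinomas these genes are known for invasion through the basement membrane, and several of the secreted MMP genes, PLAU and PLAUR are known targets of the transcription factor AP-1.

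Values are read counts divided by a size factor for each library, called normalised counts here. The libraries held 17555689 to 24774358 reads on genes, so that 1 read was worth 0.571 to 1.5 normalised counts. Normalised counts summed to 24709594 to 26996719 in the mitoxantrone libraries, 13330987 and 19744037 with pyrimethamine and 18822863 to 19026460 in untreated cells. Orders of libraries below therefore rest on the size factors, and shares of a library's total were not compared. The pyrimethamine libraries stood apart from each other. Their log2 deviations from the untreated mean correlated at 0.123 over tested genes, and 44.5% of genes lay on the same side of that mean in both, so each pyrimethamine library is given by itself. Deviations also ran with exon length, with rank correlations over 14034 genes of -0.367 to -0.352 in the mitoxantrone libraries, 0.269 and -0.357 in pyrimethamine replicates 1 and 2, and -0.104 to 0.0533 in the untreated libraries. The 7 squamous epithelium markers (KRT5, KRT14, KRT6A, TP63, SFN, CDH1 and EPCAM) were all present, with summed counts of 80364 to 81919 in the mitoxantrone libraries, 91296 and 85987 in the pyrimethamine libraries and 116112 to 123629.5 in the untreated libraries. Most of each sum was KRT5, with means of 47598 with mitoxantrone and 81811 in untreated cells. SFN and EPCAM had higher means with mitoxantrone than in untreated cells, and the other markers, such as TP63 (891 and 3349), lower ones. The 8 fibroblast markers summed to 2333 to 2578 with mitoxantrone, 4112 and 3407 with pyrimethamine and 2269 to 2409 in untreated cells, mostly THY1 and collagen genes. The 6 leukocyte markers summed to 120.1 to 158, 135 and 107, and 54.7 to 67.4 in the same order of groups, most of it CD68, while CD3E was at 0 in all but 1 library. The 4 endothelial markers summed to 83.7 to 194, 346 and 180, and 69.8 to 94.4, most of it VWF. The part of these marker levels in the results below was not tested.

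**Figure D1:**
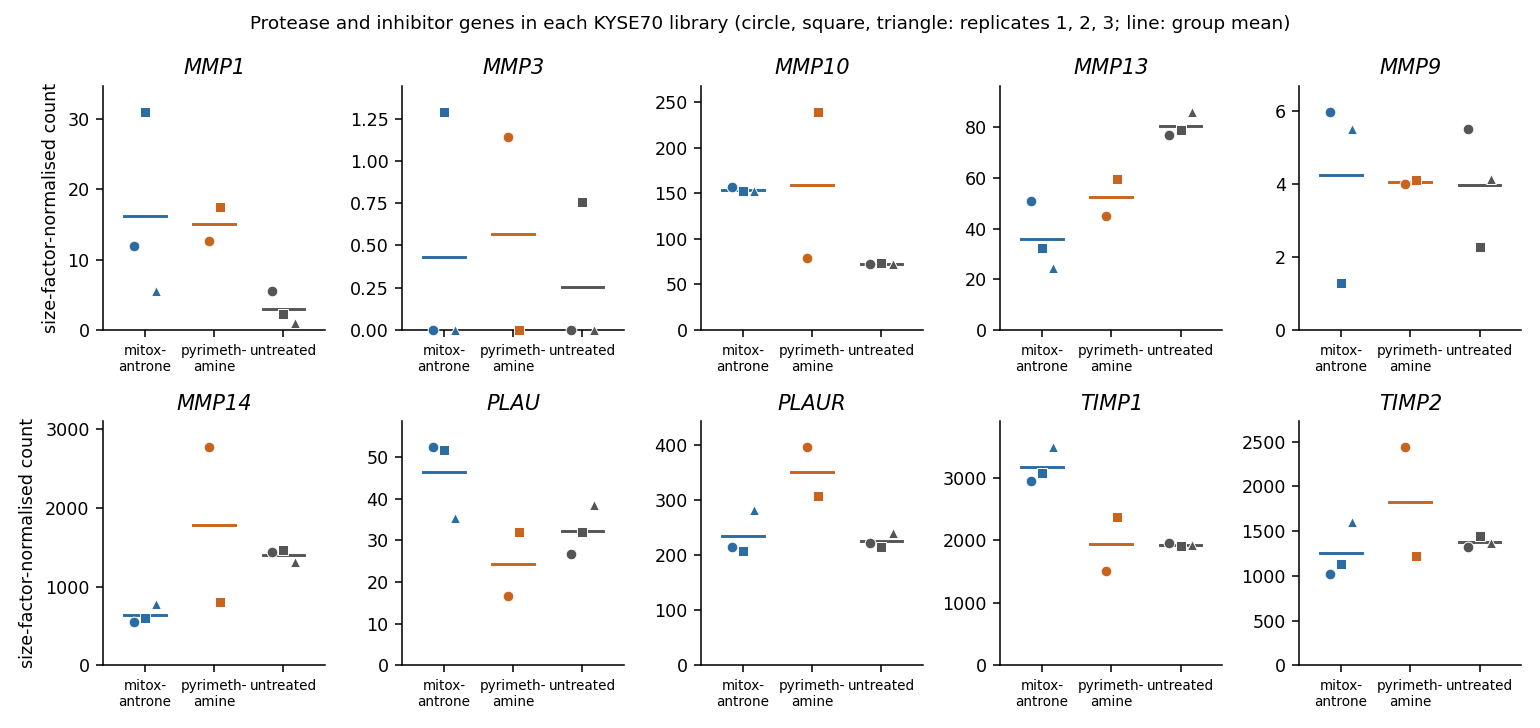
Normalised counts of the 10 genes (vertical axes, linear, a scale of its own for each gene) in each library of the mitoxantrone, pyrimethamine and untreated groups; points are libraries and lines are group means. MMP10 and TIMP1 were higher and MMP13 and MMP14 lower in all 3 mitoxantrone libraries than in any untreated library, and the 2 pyrimethamine libraries of MMP14 lay at 2768 and 797.

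On the scale of normalised counts per kb of exon, TIMP1 was the highest of the 10 genes in every group. That scale allows only a rough comparison of levels between genes, since lengths were merged over all annotated exons of a gene. Its mean level was 2059 per kb with mitoxantrone, 1259 with pyrimethamine and 1252 in untreated cells. In untreated cells the order below it was MMP14 (314), TIMP2 (245), PLAUR (50.6), MMP10 (41.4), MMP13 (28.5), PLAU (11), MMP9 (1.7), MMP1 (1.49) and MMP3 (0.124). Neighbours in that order did not overlap between libraries except MMP9 and MMP1. In mitoxantrone-treated cells MMP14 (144) stood below TIMP2 (222), MMP10 (87.5) above PLAUR (52.7), and PLAU (15.7), MMP13 (12.6) and MMP1 (8.2) followed with overlapping libraries. Counts per kb do not remove the trend with exon length, whose part in these changes of order was not tested. After adjustment for exon length the log2 fold changes with mitoxantrone were 0.36 for MMP10 and 0.1 for PLAUR. With pyrimethamine the means were 399 for MMP14, 324 for TIMP2, 90.3 for MMP10, 78.8 for PLAUR, 18.5 for MMP13, 8.21 for PLAU and 7.63 for MMP1, with wide gaps between the replicates.

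The first question was which of these genes differed between mitoxantrone-treated and untreated cells. Genes with a mean of at least 10 normalised counts were tested, which kept 15350 genes in all and 8 of the 10 described here, with MMP3 and MMP9 below the limit. In limma on log2(value + 1), 5 of the 8 passed a Benjamini-Hochberg adjusted p of 0.05 over all genes tested, 3 higher (MMP1, MMP10 and TIMP1) and 2 lower (MMP13 and MMP14). Over all genes tested 54.9% passed (26.8% higher and 28.1% lower), so the share among the 8 was close to that of all genes tested. The libraries of the groups did not overlap for the same 5 genes, where 79.9% of all genes tested did not overlap (40.4% higher and 39.5% lower). The median log2 fold change was 0.27 over the 8 genes and 0 over all genes tested. Because these are bulk samples, fewer cells that express a gene and less RNA per cell cannot be told apart.

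Of the 5 secreted MMPs described, MMP10 had the highest level per kb of exon in each group. MMP10 encodes stromelysin-2, which cleaves proteoglycans, laminin and non-fibrillar collagens and activates procollagenases. Its normalised counts were 157, 152 and 152 in the mitoxantrone libraries, 78.8 and 239 in the pyrimethamine libraries and 72.6, 72.9 and 72.6 in the untreated libraries. Each mitoxantrone library was thus above each untreated library, while pyrimethamine replicate 1 was near the untreated level and replicate 2 above every other library. Its log2 fold change with mitoxantrone was 1.07 ± 0.36 (SE; limma, Benjamini-Hochberg adjusted p = 0.0351). That call was lost without any one of the mitoxantrone or untreated libraries (adjusted p 0.0817 to 0.0922, log2 fold change 1.06 to 1.08). It was also lost after adjustment for exon length, where the log2 fold change was 0.36 (adjusted p = 0.178). With the pyrimethamine libraries out of the fit the adjusted p was 5.94e-05, a setting where 11834 genes passed in all, against 8430. Reads could also be shared with its neighbour MMP3, since 3.36% of the 50-base stretches of MMP10 transcripts occur in MMP3 transcripts, and MMP3 itself had 0 to 2 reads in any library.

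The promoter of MMP10 is shown because it was one of 5 members with a window in RefSeq (GRCh38.p14, 250 bases before to 50 after the start site) and one of the 3 such members that passed the test with mitoxantrone. It lies at chr11:102780579-102780878 on the minus strand and is printed 5′ to 3′, with capitals for the single motif match.
MMP10: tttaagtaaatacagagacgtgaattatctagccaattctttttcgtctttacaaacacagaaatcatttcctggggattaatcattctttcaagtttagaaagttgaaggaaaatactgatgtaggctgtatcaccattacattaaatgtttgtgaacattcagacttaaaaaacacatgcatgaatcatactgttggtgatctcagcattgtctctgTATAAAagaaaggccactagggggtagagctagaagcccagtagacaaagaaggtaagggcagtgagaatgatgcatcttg
Both strands of the windows were searched for 4 strings, an AP-1 site (TGAGTCA), an antioxidant response element core (TGACNNNGC), a GC box (GGGCGG) and a TATA box (TATAAA). Of 35116 RefSeq windows of the same length, 4.95% hold the AP-1 string, 13.3% the antioxidant response element core, 45% the GC box and 11.5% the TATA box. The MMP10 window holds a TATA box 31 bases before the start site and no match to the other strings.

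MMP1 encodes interstitial collagenase, which cuts fibrillar collagens of types I, II and III. Its normalised counts were 12, 31 and 5.52 with mitoxantrone, 12.6 and 17.5 with pyrimethamine and 5.51, 2.28 and 1.04 in untreated cells. These values rest on 8, 24 and 5 reads, 22 and 17 reads, and 6, 3 and 1 reads in the same order. The groups barely separate, since the lowest mitoxantrone library was at 5.52 and the highest untreated library at 5.51, and the gene reached the mean of 10 through its treated libraries. Mitoxantrone minus untreated was 1.99 ± 0.68 log2 units (SE; limma, adjusted p = 0.0376). Without mitoxantrone replicate 2 it was 1.39 (adjusted p = 0.127), and the call was also lost without mitoxantrone replicate 1 (adjusted p = 0.085), untreated replicate 2 (0.0936) and untreated replicate 3 (0.118). It was 1.35 after adjustment for exon length (adjusted p = 0.117), 1.07 with quantile normalisation (0.24) and 0.91 with a pseudocount of 10 (0.0559), none of which passed, and with no filter on low values the adjusted p was 0.0584. MMP1 also shares 7.61% of its exon bases with WTAPP1, a transcribed pseudogene on the opposite strand, and no strand setting is given in the sources used here. WTAPP1 was named after its values were seen. It had 16.4, 37.4 and 24.3 normalised counts with mitoxantrone, 13.1 and 14.4 with pyrimethamine and 0.919, 2.28 and 2.07 in untreated cells. Its log2 fold change with mitoxantrone was 3.26 ± 0.45 (limma, adjusted p = 0.0012). Like MMP1, WTAPP1 reached the mean of 10 through its treated libraries, which had to be high. Reads of MMP1 and WTAPP1 over the shared bases cannot be told apart.

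MMP13, collagenase-3, cleaves type II collagen and other fibrillar collagens and moved the other way. Its normalised counts were 50.8, 32.3 and 24.3 with mitoxantrone, 45.1 and 59.7 with pyrimethamine and 77.2, 79 and 86.1 in untreated cells. All 5 treated libraries were below all 3 untreated libraries. For mitoxantrone the log2 fold change was -1.21 ± 0.31 (SE; limma, adjusted p = 0.012). It was the single gene of the 8 that passed the threshold with mitoxantrone under all 22 alternative settings, between -1.59 and -0.98 with an adjusted p of at most 0.0465. None of its 50-base stretches occur in transcripts of another gene.

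MMP3, stromelysin-1, and MMP9, gelatinase B, were close to the limit of detection. MMP3 had 0, 1 and 0 reads with mitoxantrone, 2 and 0 with pyrimethamine and 0, 1 and 0 in untreated cells, all under the floor of 3 reads, so no fold is given. MMP9 had 4, 1 and 5 reads with mitoxantrone, 7 and 4 with pyrimethamine and 6, 3 and 4 in untreated cells. Its normalised counts, 1.29 to 5.98, 4 and 4.11, and 2.28 to 5.51 in the same order, overlapped between all groups, and a difference was not detectable at this depth. The antisense gene SLC12A5-AS1, named after its values were seen, covers 18.4% of the MMP9 exon bases on the opposite strand and had 51.8 to 82.2, 32 and 51.4, and 7.6 to 18.4 normalised counts in the same order.

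The genes at the cell surface differed from one another. MMP14 encodes the transmembrane collagenase MT1-MMP, which also activates pro-MMP2. Its normalised counts were 544, 604 and 779.9 with mitoxantrone, 2768 and 797 with pyrimethamine and 1433, 1463 and 1312 in untreated cells. The mitoxantrone libraries all lay below the untreated ones, and the pyrimethamine libraries lay on either side of them. The log2 fold change with mitoxantrone was -1.14 ± 0.40 (SE; limma, adjusted p = 0.0396). The call was lost without any one of the mitoxantrone or untreated libraries (log2 fold change -1.29 to -1.03, adjusted p 0.0608 to 0.121), and likewise with upper-quartile scaling (adjusted p = 0.0551), quantile normalisation (0.117) and no trend in eBayes (0.0536). The adjusted p was 1.89e-06 when the pyrimethamine libraries took no part in the fit.

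The MMP14 promoter is shown as the second window of a gene that passed the test, from chr14:22836335-22836634 on the plus strand, with its motif match in capitals.
MMP14: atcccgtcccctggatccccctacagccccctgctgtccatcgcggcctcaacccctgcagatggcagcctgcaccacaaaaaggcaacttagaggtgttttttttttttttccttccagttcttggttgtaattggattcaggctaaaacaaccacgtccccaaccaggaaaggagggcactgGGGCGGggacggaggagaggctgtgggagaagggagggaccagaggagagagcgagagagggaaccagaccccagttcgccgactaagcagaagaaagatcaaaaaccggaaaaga
It holds a GC box 66 bases before the start site and no match to the AP-1, antioxidant response element or TATA strings.

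PLAU, which encodes urokinase, had 52.3, 51.6 and 35.3 normalised counts with mitoxantrone, 16.6 and 31.9 with pyrimethamine and 26.7, 31.9 and 38.4 in untreated cells. Mitoxantrone replicate 3 lay within the untreated range and the other two above it. With mitoxantrone the log2 fold change was 0.50 ± 0.34 and did not pass (limma, adjusted p = 0.228), with a 95% interval of -0.27 to 1.28. PLAU shares 31.1% of its exon bases with C10orf55 on the opposite strand, a gene named after its values were seen that had 17.9, 29.7 and 19.9 normalised counts with mitoxantrone, 4 and 19.5 with pyrimethamine and 10.1, 12.9 and 12.4 in untreated cells.

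PLAUR, which encodes the urokinase receptor, had 215, 207 and 282 normalised counts with mitoxantrone, 396 and 307 with pyrimethamine and 222, 214 and 239.5 in untreated cells. The mitoxantrone and untreated libraries overlapped, while both pyrimethamine libraries lay above all others. The log2 fold change with mitoxantrone was 0.05 ± 0.19 (limma, adjusted p = 0.849), with a 95% interval of -0.40 to 0.49, and its sign turned without mitoxantrone replicate 3 (-0.09). The PLAUR window is shown because it was the one window of these genes with an AP-1 string, which lies 186 bases before the start site. It comes from chr19:43670120-43670419 on the minus strand, with the AP-1 string in capitals.
PLAUR: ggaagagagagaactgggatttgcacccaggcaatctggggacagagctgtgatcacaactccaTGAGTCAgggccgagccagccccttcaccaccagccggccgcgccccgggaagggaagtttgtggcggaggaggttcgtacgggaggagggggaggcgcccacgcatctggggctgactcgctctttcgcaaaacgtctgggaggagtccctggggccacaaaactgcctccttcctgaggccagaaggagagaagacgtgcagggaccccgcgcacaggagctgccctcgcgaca
No match to the other 3 strings was found in it.

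The inhibitors TIMP1 and TIMP2 also parted. TIMP1 had 2955, 3076 and 3488 normalised counts with mitoxantrone, 1509 and 2371 with pyrimethamine and 1959, 1909 and 1918 in untreated cells. In normalised counts all mitoxantrone libraries were above all others, and the pyrimethamine libraries fell on either side of the untreated ones. That order rests on the size factors, since the summed normalised counts differed between the groups. The log2 fold change with mitoxantrone was 0.71 ± 0.19 (SE; limma, adjusted p = 0.0157). TIMP1 has the shortest exons of the 10 genes, 1541 bases, and after adjustment for exon length the log2 fold change was -0.07 (adjusted p = 0.708), so the direction of this change relative to genes of like length is not settled. The call was also lost without mitoxantrone replicate 2 (adjusted p = 0.05) or 3 (0.0547) and without any untreated library (0.0526 to 0.058). With the pyrimethamine libraries out of the fit the adjusted p was 2.14e-06.

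The TIMP1 promoter is the third window of a gene that passed the test, from chrX:47582186-47582485 on the plus strand, with capitals for its matches.
TIMP1: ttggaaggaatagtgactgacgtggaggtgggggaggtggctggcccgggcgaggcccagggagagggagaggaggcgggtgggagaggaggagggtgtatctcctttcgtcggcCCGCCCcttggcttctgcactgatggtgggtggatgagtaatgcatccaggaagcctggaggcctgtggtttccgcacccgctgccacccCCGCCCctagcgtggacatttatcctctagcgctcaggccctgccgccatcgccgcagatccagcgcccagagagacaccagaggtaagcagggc
Its 2 GC boxes, on the opposite strand and so printed as CCGCCC, lie 135 and 45 bases before the start site, and the other 3 strings had no match. PLAU, which did not pass, has 2 windows on the plus strand that are not printed. The one at chr10:73910360-73910659 holds an antioxidant response element core on the opposite strand, 168 bases before its start site, and the one at chr10:73910882-73911181 holds 3 GC boxes 66, 51 and 40 bases before its start site. For MMP1, MMP3, MMP9, MMP13 and TIMP2 no window is shown.

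TIMP2 had 1019.8, 1135 and 1602 normalised counts with mitoxantrone, 2436 and 1219 with pyrimethamine and 1322, 1441 and 1369.7 in untreated cells. The mitoxantrone libraries lay on both sides of the untreated range. For mitoxantrone the log2 fold change was -0.16 ± 0.28 (limma, adjusted p = 0.623), with a 95% interval of -0.80 to 0.47, and its sign turned after adjustment for exon length (0.09).

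**Figure D2:**
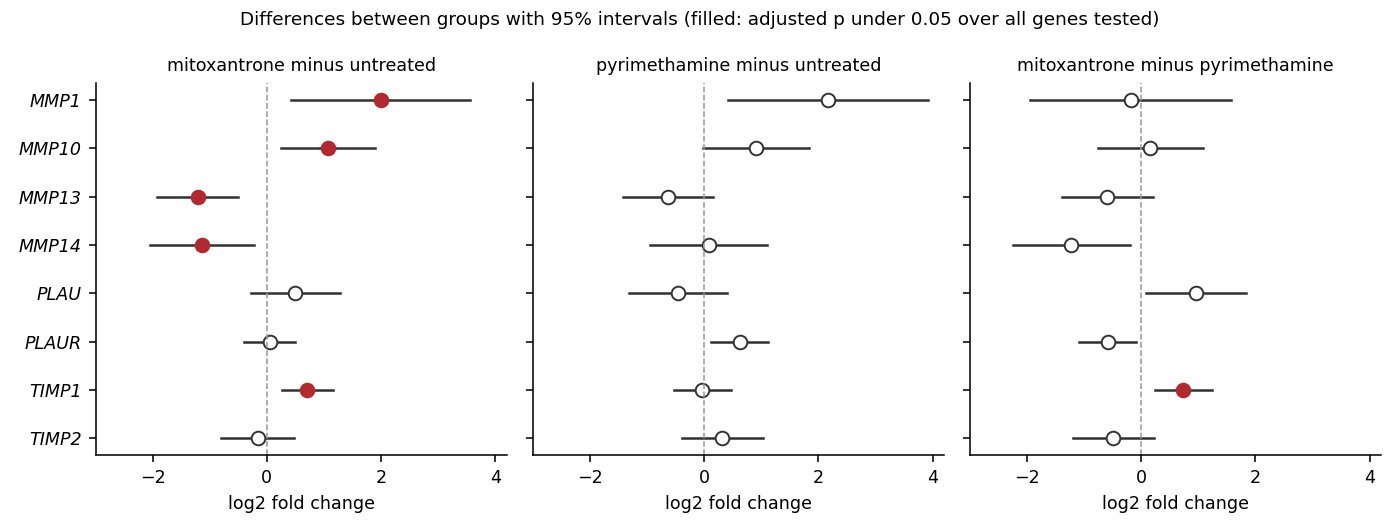
Log2 fold changes of the 8 tested genes (horizontal axis) in the 3 comparisons, with 95% intervals from limma as lines; filled points passed an adjusted p of 0.05. With mitoxantrone 5 genes passed, from -1.21 for MMP13 to 1.99 for MMP1, with pyrimethamine none did, and between the compounds TIMP1 passed at 0.74.

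The second question was which of these genes differed between pyrimethamine-treated and untreated cells, a comparison that uses the same untreated libraries. None of the 8 genes passed in limma, where 3.6% of all genes tested did (2.29% higher and 1.31% lower), and none passed in edgeR or DESeq2 on recovered reads. At an unadjusted p under 0.05 there were 2, MMP1 and PLAUR, beside 2971 of the 15350 genes tested. MMP1 was 2.17 ± 0.76 log2 units above untreated cells (adjusted p = 0.164), and PLAUR 0.63 ± 0.22 (adjusted p = 0.153). The libraries of the groups did not overlap for 4 genes, with MMP1, MMP10 and PLAUR higher and MMP13 lower in both pyrimethamine libraries, beside 32.7% of all genes tested (15.8% higher and 16.9% lower). For MMP10 the log2 fold change was 0.91 ± 0.40 (adjusted p = 0.268), from 0.11 in replicate 1 and 1.70 in replicate 2 against the untreated mean, and for MMP13 -0.63 ± 0.34 (adjusted p = 0.369).

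For the other 4 genes the pyrimethamine libraries overlapped the untreated ones or fell on either side of them. MMP14 was 0.98 above the untreated mean on the log2 scale in replicate 1 and 0.81 below it in replicate 2 (-0.81). TIMP2 showed 0.82 and -0.18, and TIMP1 showed -0.35 and 0.30. PLAU had -0.91 in replicate 1 and 0 in replicate 2. MMP14, TIMP1 and TIMP2 thus had opposite signs in the replicates. A fit with 1 pyrimethamine library must assume that this group varies like the others, so only the deviations are given here.

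The third comparison set mitoxantrone against pyrimethamine. TIMP1 was the 1 gene of 8 that passed, beside 41% of all genes tested (21.2% higher and 19.9% lower). It was 0.74 ± 0.22 log2 units higher with mitoxantrone (SE; limma, adjusted p = 0.0319). After adjustment for exon length it was -0.09 (adjusted p = 0.683), and the call was lost without any one mitoxantrone or untreated library (adjusted p 0.0613 to 0.0883). At an unadjusted p under 0.05 there were 4 genes of the 8, beside 8479 of the 15350 genes tested. The other 3 were MMP14 (-1.22 ± 0.45, adjusted p = 0.0556), PLAUR (-0.58 ± 0.22, adjusted p = 0.0581) and PLAU (0.96 ± 0.38, adjusted p = 0.0689). For these 4 genes the libraries of the compounds did not overlap, as for 63.3% of all genes tested (32.9% higher and 30.4% lower). MMP14 also passed in edgeR (-1.58, adjusted p = 0.0284) and DESeq2 (-1.47, adjusted p = 0.00614), as did PLAUR (adjusted p = 0.0431 and 0.0441). In limma the MMP14 difference was -0.33 without pyrimethamine replicate 1 and -2.12 without replicate 2. Each of these fits leaves 1 pyrimethamine library, so only the differences are given. The 95% intervals of the remaining differences were -1.94 to 1.57 for MMP1, -0.76 to 1.09 for MMP10, -1.38 to 0.20 for MMP13 and -1.19 to 0.25 for TIMP2. The doses of the compounds differ, so this sets 1 dose of each side by side.

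Ratios within a library do not depend on the size factor, but they keep the trend with exon length, which counts per kb do not remove. After adjustment for exon length the log2 fold changes with mitoxantrone were -1.08 for MMP14, 0.09 for TIMP2 and -0.07 for TIMP1. They were 0.36 for MMP10 and -1.59 for MMP13. On the scale of counts per kb of exon, MMP14 over TIMP2 was 0.673, 0.672 and 0.614 with mitoxantrone, 1.43 and 0.825 with pyrimethamine and 1.37, 1.28 and 1.21 in untreated cells. The mean was 0.653 ± 0.0336 with mitoxantrone and 1.29 ± 0.08 in untreated cells (SD, n = 3 each), and an exact two-sided permutation test gave p = 0.1, the smallest that 3 against 3 libraries allow. MMP14 over TIMP1 was 0.0636, 0.0678 and 0.0772 with mitoxantrone, 0.633 and 0.116 with pyrimethamine and 0.252, 0.264 and 0.236 in untreated cells. For MMP2, the gelatinase that MMP14 and TIMP2 activate, the ratio over TIMP2 was 0.777, 0.818 and 0.748 with mitoxantrone, 1.26 and 1.02 with pyrimethamine and 1.22, 1.2 and 1.1 in untreated cells. All 3 ratios were lower in every mitoxantrone library than in any other library. PLAU over PLAUR was 0.367, 0.378 and 0.189 with mitoxantrone, 0.0631 and 0.157 with pyrimethamine and 0.181, 0.225 and 0.242 in untreated cells, so that the mitoxantrone and untreated libraries overlapped and both pyrimethamine libraries were below all others. MMP10 over MMP13 was 4.98, 7.61 and 10.1 with mitoxantrone, 2.82 and 6.45 with pyrimethamine and 1.52, 1.49 and 1.36 in untreated cells, higher in all 5 treated libraries.

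**Figure D3:**
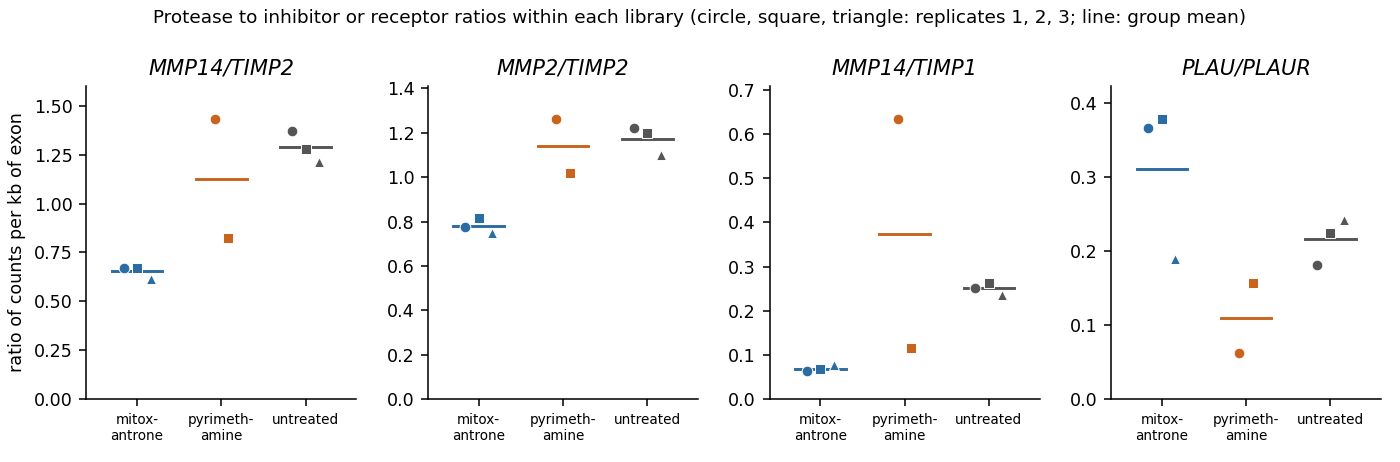
Ratios of counts per kb of exon within each library (vertical axes, linear and starting at 0) for MMP14 to TIMP2, MMP2 to TIMP2, MMP14 to TIMP1 and PLAU to PLAUR; points are libraries and lines are group means. The mitoxantrone libraries of MMP14 to TIMP2 lie between 0.614 and 0.673 and the untreated ones between 1.21 and 1.37.

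Among the genes themselves, log2 values over the 8 libraries of all groups gave a Pearson r of -0.914 for MMP14 with TIMP1, -0.898 for MMP14 with PLAU and 0.832 for MMP14 with TIMP2. PLAU and PLAUR had an r of -0.758, and MMP1 and MMP10 one of 0.674. The libraries share their groups, depth and the trend with exon length, so these values describe the 8 libraries only. Among the genes whose pattern was most like that of MMP1, the called gene with the largest fold change with mitoxantrone, were ST3GAL6 (r = 0.979), EPHX2 (0.967), SLC12A5 (0.948) and LOC105377205 (0.939). For PLAU they were INTU (0.984), LCTL (0.983), SPATA6L (0.973), NSUN3 (0.967) and TTC8 (0.966).

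MMP1, MMP3, MMP10 and MMP13 lie together on the long arm of chromosome 11, in a cluster that runs from MMP7 to MMP13 (chr11:102520508-102955734, GRCh38, all on the minus strand). The cluster holds MMP7, MMP20, MMP8, MMP10, MMP1, MMP3, MMP12 and MMP13 in that order, and MMP27 was not analysed here. MMP7, matrilysin, which lacks the hemopexin domain of most MMPs, had 25.4, 40 and 15.4 normalised counts with mitoxantrone, 0.571 and 8.23 with pyrimethamine and 0, 0.76 and 1.04 in untreated cells. That is 62 reads over the mitoxantrone libraries and 2 reads over the untreated libraries, a ratio of 44.4 with an exact 95% counting interval of 11.8 to 375, which covers counting error only. The fitted log2 fold change was 4.09 ± 0.74 (limma, adjusted p = 0.00327), on a scale where the pseudocount of 1 holds down such values, and the gene reached the mean of 10 through its mitoxantrone libraries. MMP12, macrophage elastase, was named after its values were seen and had 28.4, 25.8 and 25.4 normalised counts with mitoxantrone, 8.56 and 14.4 with pyrimethamine and 0.919, 5.32 and 2.07 in untreated cells (log2 fold change 3.04 ± 0.51, adjusted p = 0.00236, and 2.38 after adjustment for exon length). It too reached the mean of 10 through treated libraries. The leukocyte markers given above were also higher with mitoxantrone, through CD68 at 98.7 to 136 against 52.4 to 62.2 in untreated cells, while CD14 and PTPRC were at 1.29 to 7.75 against 0 to 2.07. MMP7, MMP10, MMP1 and MMP12 thus passed as higher and MMP13, at the end of the cluster, as lower. Of the 4 higher ones, MMP7, MMP1 and MMP12 had to be high in treated cells to be tested at all, and the calls of MMP1 and MMP10 were lost under the settings given above, so this count says nothing of the cluster as a whole. MMP20 and MMP8 had means of 12.5 and 2.6 with mitoxantrone, 2.51 and 0.8 with pyrimethamine and 1.04 and 0.253 in untreated cells and were not tested.

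**Figure D4:**
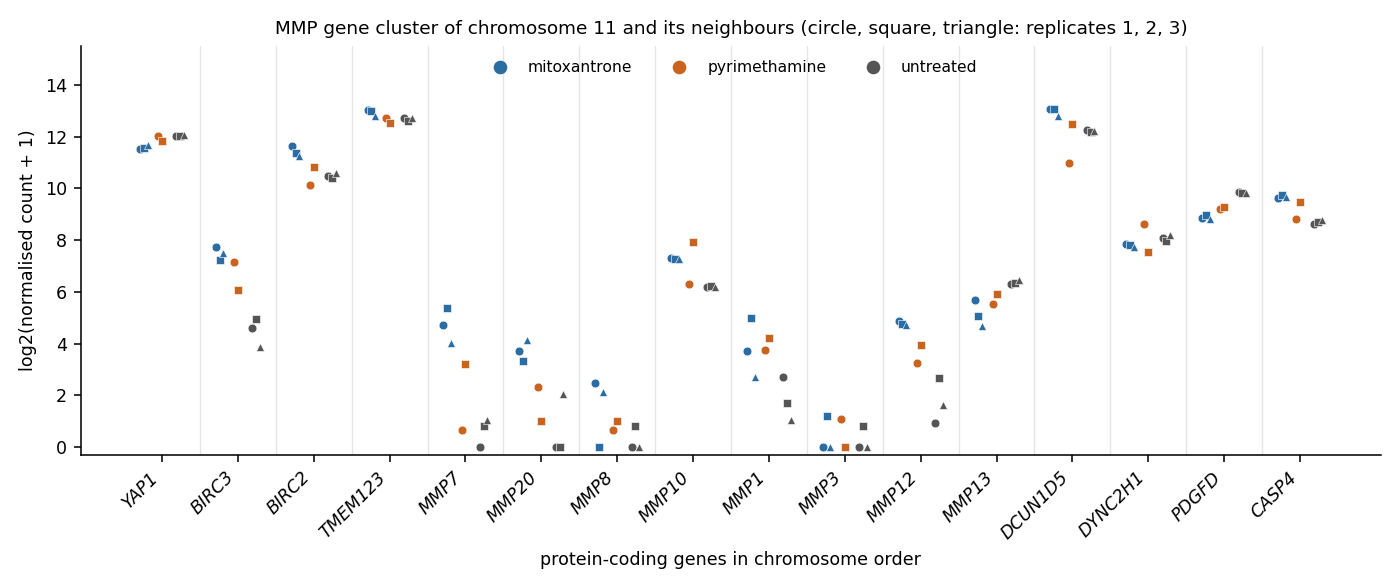
Level of each protein-coding gene (vertical axis, log2 of normalised count + 1) in chromosome order across the MMP cluster and its neighbours, by library, with colours for mitoxantrone, pyrimethamine and untreated cells. MMP7, MMP10, MMP1 and MMP12 stand higher and MMP13 lower in the mitoxantrone than in the untreated libraries, and BIRC3 outside the cluster stands higher in all 5 treated libraries.

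Of the 8 protein-coding neighbours plotted beside the cluster, all named after their values were seen, 5 passed with mitoxantrone, where 54.9% of all genes tested did. YAP1 (log2 fold change -0.45, adjusted p = 0.0365) and PDGFD (-0.95, 0.0013) were lower and CASP4 (1.00, 0.00391), BIRC3 and BIRC2 higher, while TMEM123 (0.25, 0.24), DCUN1D5 (0.76, 0.0883) and DYNC2H1 (-0.29, 0.377) did not pass. The call of YAP1 was lost without any one mitoxantrone or untreated library (adjusted p 0.0601 to 0.124), with upper-quartile scaling (0.0597), with no filter (0.0786) and after adjustment for exon length (-0.11, 0.471), and those of TMEM123 and DCUN1D5 were gained when the pyrimethamine libraries took no part (0.00732 and 1.31e-06). BIRC3, an inhibitor of apoptosis and a known NF-kB target, had 209, 150 and 180 normalised counts with mitoxantrone, 142 and 66.9 with pyrimethamine and 23, 29.6 and 13.5 in untreated cells, with log2 fold changes of 3.02 ± 0.38 with mitoxantrone (limma, adjusted p = 0.000872) and 2.16 ± 0.42 with pyrimethamine (adjusted p = 0.0348). The pyrimethamine call was lost without any one mitoxantrone or untreated library (adjusted p 0.0761 to 0.122). BIRC2, its paralog beside it, had a log2 fold change of 0.93 ± 0.21 with mitoxantrone (adjusted p = 0.00751).

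Of the other genes of extracellular proteolysis, 56 in 6 lists were tested. With mitoxantrone 10 passed as higher and 17 as lower, where 26.8% of all genes tested passed as higher and 28.1% as lower, with a median log2 fold change of -0.43 beside 0 over all genes tested. Of the 10 higher ones, 5 (MMP7, MMP12, TFPI2, SERPINI1 and VTN) averaged under 10 normalised counts in untreated cells and were tested through their treated libraries, which had to be high. Of the 17 lower ones, 1 (MMP23B) averaged under 10 with mitoxantrone. The list counts below include these genes and are to be read against the same shares of all genes tested, 54.9% in either direction. With pyrimethamine 2 passed as higher and 0 as lower, beside 2.29% and 1.31% of all genes tested, with a median of 0.31 beside -0.08 over all genes tested. Between the compounds 6 passed as higher and 20 as lower with mitoxantrone, beside 21.2% and 19.9% of all genes tested, with a median of -0.67 beside -0.02. The number called was 43 with mitoxantrone when the pyrimethamine libraries took no part, beside 11834 of the 15350 genes tested under that setting. With pyrimethamine it was 11 in DESeq2, beside 1738 of all genes tested.

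Of the 12 other MMPs tested, 3 passed as higher and 2 as lower with mitoxantrone. The higher ones were MMP7, MMP12 and MMP28, an epidermal MMP named after its values were seen, which had 49.3, 51.6 and 51.8 normalised counts with mitoxantrone, 25.1 and 49.4 with pyrimethamine and 9.19, 8.36 and 13.5 in untreated cells (log2 fold change 2.22 ± 0.34, adjusted p = 0.00178). MMP15, a second membrane-type MMP, had 176, 263 and 292 normalised counts with mitoxantrone, 726 and 379.5 with pyrimethamine and 525, 611 and 506 in untreated cells (log2 fold change -1.19 ± 0.28, adjusted p = 0.00956). The other lower one, MMP23B, named after its values were seen, changed by -1.55 ± 0.50 log2 units (adjusted p = 0.03) at a mean of 3.26 with mitoxantrone and 11.5 in untreated cells, and that call was lost without mitoxantrone replicate 1 or 2 or untreated replicate 1 or 3 (adjusted p 0.0545 to 0.108). MMP2 had 694, 813 and 1049 normalised counts with mitoxantrone, 2689 and 1091 with pyrimethamine and 1411, 1517 and 1322 in untreated cells. The mitoxantrone libraries lay below the untreated ones, with a log2 fold change of -0.75 ± 0.32 that did not pass (adjusted p = 0.073).

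Of the other inhibitors, 5 of 6 tested passed as higher with mitoxantrone and none as lower, but TFPI2 and SERPINI1 were among those tested through their treated libraries. TIMP3, the TIMP that binds to the matrix, had 1335, 1464 and 1708 normalised counts with mitoxantrone, 1733 and 1067 with pyrimethamine and 628, 694 and 607 in untreated cells. All 5 treated libraries stood above all untreated ones, with log2 fold changes of 1.22 ± 0.21 with mitoxantrone (limma, adjusted p = 0.00251) and 1.08 ± 0.23 with pyrimethamine (adjusted p = 0.0449). The pyrimethamine call was lost without any one mitoxantrone or untreated library (adjusted p 0.0863 to 0.169). RECK, a membrane-anchored MMP inhibitor, was 0.92 ± 0.19 log2 units higher with mitoxantrone (adjusted p = 0.00564), and SERPINE2, protease nexin-1, which inhibits urokinase and thrombin, 0.90 ± 0.18 higher (adjusted p = 0.00482). The inhibitors TFPI2 and SERPINI1 were named after their values were seen. TFPI2, a Kunitz-type inhibitor of plasmin, had 132, 102 and 93.8 normalised counts with mitoxantrone, 8.56 and 20.6 with pyrimethamine and 0.919, 1.52 and 6.22 in untreated cells (log2 fold change 5.06 ± 0.56, adjusted p = 0.000588). SERPINI1, neuroserpin, was 3.91 ± 0.61 log2 units higher (adjusted p = 0.00179). SERPINB2, PAI-2, with a mean of 9.4 over the 8 libraries, was not tested and had 16.4, 18.1 and 8.82 normalised counts with mitoxantrone, 9.13 and 17.5 with pyrimethamine and 3.68, 1.52 and 0 in untreated cells.

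**Figure D5:**
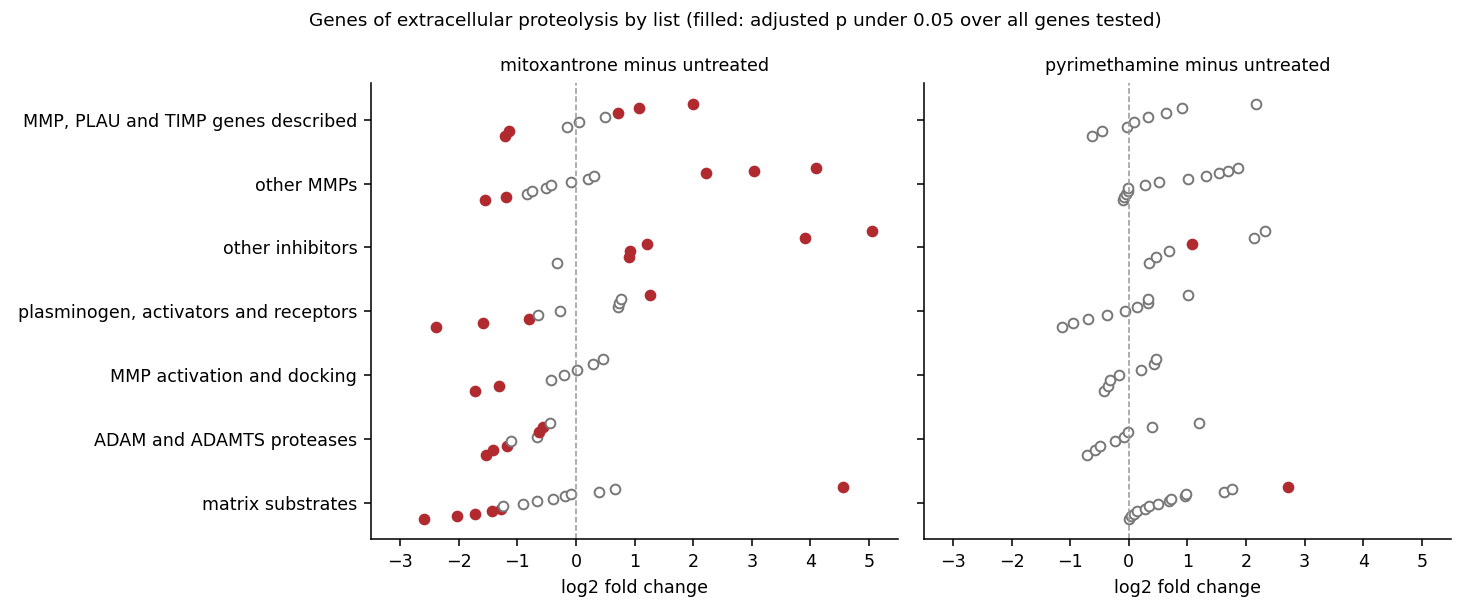
Log2 fold changes (horizontal axes) of the 8 tested genes described and of the 6 lists of related genes, with mitoxantrone and with pyrimethamine, each against untreated cells; each point is a gene and filled points passed an adjusted p of 0.05. With mitoxantrone 5 of 6 other inhibitors lie to the right and passed, 2 of them tested only through their treated libraries, and 5 of 8 ADAM and ADAMTS genes lie to the left and passed.

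Of the 9 tested genes for plasminogen, its activators and receptors, 1 passed as higher and 3 as lower with mitoxantrone. S100A10, the annexin A2 partner that docks plasminogen at the cell surface, was 1.27 ± 0.29 log2 units higher (limma, adjusted p = 0.00764), but 0.49 after adjustment for exon length (adjusted p = 0.041) and 0.50 with quantile normalisation (0.0156). LRP1, the receptor that clears protease and inhibitor complexes, had 89.7, 105 and 124 normalised counts with mitoxantrone, 844 and 220.1 with pyrimethamine and 565, 552 and 554 in untreated cells (log2 fold change -2.39 ± 0.42, adjusted p = 0.00293, and -1.71 after adjustment for exon length). MRC2, an endocytic collagen receptor that associates with the urokinase receptor, had a change of -1.59 ± 0.41 (adjusted p = 0.0134). ST14, matriptase, named after its values were seen, had one of -0.81 (adjusted p = 0.0338). PLGRKT, a plasminogen receptor, had one of 0.71 ± 0.44 (adjusted p = 0.195) whose sign turned after adjustment for exon length (-0.09), and PLAT, the tissue-type activator, one of -0.65 ± 0.30 (adjusted p = 0.0934). The call of ST14 was lost without any one mitoxantrone or untreated library (adjusted p 0.0647 to 0.107), and that of MRC2 without mitoxantrone replicate 1 (0.0547) or with quantile normalisation (0.0518). PLG itself had 0 reads in all but 2 mitoxantrone libraries, with 1 and 3 reads.

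For MMP activation and docking, 2 of 7 tested genes passed as lower with mitoxantrone. These were FURIN, the proprotein convertase that activates pro-MMP14 (log2 fold change -1.73, adjusted p = 0.0042), and its relative PCSK7 (-1.32, adjusted p = 0.022). FURIN had 215, 183 and 286 normalised counts with mitoxantrone, 962 and 371 with pyrimethamine and 760.1, 795 and 686 in untreated cells. The call of PCSK7 was lost without mitoxantrone replicate 1 or 2 or untreated replicate 2 or 3 (adjusted p 0.0602 to 0.0812). Of the ADAM and ADAMTS proteases, 5 of 8 tested passed as lower and none as higher, where 28.1% and 26.8% of all genes tested did. The lower ones were ADAM9 (-1.17, adjusted p = 0.0226), ADAM15 (-0.63, 0.00703), ADAM17 (-0.57, 0.0426), ADAMTS15 (-1.53, 0.0116) and, named after its values were seen, ADAMTS1 (-1.42). The rest of the list lay below a mean of 10 and was not tested. With mitoxantrone and in untreated cells, means were 18.2 and 2.53 for ADAMTS12, 13.3 and 4.06 for ADAMTS9 and 1.43 and 0.56 for ADAMTS4. They were 5.42 and 7.6 for ADAM12 and 1.1 and 1.34 for ADAMTS5. These genes were named after their values were seen. The sign of ADAM17, the TNF-converting enzyme, turned after adjustment for exon length (0.03), and its call was lost without any one mitoxantrone or untreated library (adjusted p 0.0695 to 0.13). ADAM15 also lost its call after that adjustment (-0.26, adjusted p = 0.131). ADAM9 lost its call without any of those libraries other than mitoxantrone replicate 3 (adjusted p 0.0619 to 0.0793), and ADAMTS1 without mitoxantrone replicate 2 or untreated replicate 2 (0.0535 and 0.0576).

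Of the 14 matrix substrates, all tested, 5 passed as lower with mitoxantrone and 1 as higher. The lower ones were the fibrillar collagens COL3A1 (-2.03, adjusted p = 0.000297) and COL1A1 (-1.28, 0.00272) and the basement membrane or anchoring fibril collagens COL4A2 (-1.73, 0.00372), COL7A1 (-2.60, 0.00389) and, named after its values were seen, COL4A1 (-1.44, 0.0301). COL1A1 and COL3A1 are also among the 8 fibroblast markers, of which THY1 and LUM passed as higher with mitoxantrone. THY1 averaged 1935 normalised counts with mitoxantrone and 1158 in untreated cells. LUM averaged 52.1 and 5.84, so it was tested through its treated libraries, which had to be high. The call of LUM was lost without mitoxantrone replicate 1 (limma, adjusted p = 0.0501). The overlapping sums of that list thus hide members that differed in opposite directions, as THY1 did from COL1A1 and COL3A1. After adjustment for exon length the log2 fold changes were -1.05 for COL4A2, -1.99 for COL7A1 and -0.79 for COL4A1, all of which still passed. The call of COL4A1 was lost without any mitoxantrone or untreated library other than mitoxantrone replicate 3 (adjusted p 0.0629 to 0.106). COL7A1, the collagen of anchoring fibrils, had 196, 218 and 362 normalised counts with mitoxantrone, 3415 and 749.8 with pyrimethamine and 1533, 1579.6 and 1447 in untreated cells. VTN, vitronectin, which binds the urokinase receptor, was named after its values were seen and was tested through its treated libraries. It had 40.4, 56.8 and 40.8 normalised counts with mitoxantrone, 12.6 and 11.3 with pyrimethamine and 0, 1.52 and 2.07 in untreated cells, with log2 fold changes of 4.55 ± 0.50 with mitoxantrone (adjusted p = 0.000573) and 2.71 ± 0.56 with pyrimethamine (adjusted p = 0.0412). The pyrimethamine call was lost without any one mitoxantrone or untreated library (adjusted p 0.0888 to 0.111) and when the mitoxantrone libraries took no part (0.222).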

How the data were processed

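The members and gene lists were chosen with earlier results of these data known. The deposited table holds a normalised signal, made by the authors by dividing gene counts by DESeq2 size factors, per the file's name. Per the submitters' processing notes, reads were handled with featureCounts 1.5.1, STAR 2.6.90c, cutadapt 1.12 and FastQC 0.11.5 on build hg38; no source used here names the annotation or the strand setting. Values were whole multiples of 1 step per library, so reads were recovered (100% whole within 0.1 read).

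Differences were tested two-sided with limma 3.58.1 under R 4.3.3 (lmFit, then eBayes using a trend), after log2(value + 1). The test covered 15350 genes with a mean of at least 10, and all 8 libraries shared 1 spread (5 residual degrees of freedom), although the pyrimethamine libraries differed most. Over genes, the median SE of the log2 fold change was 0.3 with mitoxantrone and 0.335 with pyrimethamine. Adding the pseudocount of 1 makes fold changes of weakly expressed genes smaller. Benjamini-Hochberg adjustment ran over all genes tested, with a threshold of 0.05, in 3 comparisons. edgeR 4.0.16 and DESeq2 1.42.0 on recovered reads were among 22 alternatives, fixed with those results known; the fit was checked on simulated data. The exon length adjustment subtracted a lowess trend (span 0.3). Exon lengths and overlaps came from GENCODE 29 (GRCh38), where 20858 genes matched on their symbol, 657 on another symbol and 6766 on none. The interval of the MMP7 read ratio and the floor of 3 reads cover counting error only. The 95% intervals of log2 fold changes came from the limma SE and so reflect the spread between libraries. All 10 members were named, plus up to 4 genes per list with a mean of at least 100 that were called in any comparison, by smallest adjusted p, and SERPINB2, PLAT, MMP2, MMP7, TIMP3 and RECK. Likeness used Pearson r over 8 libraries. Some genes that the rule names are not reported here.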

Additional observations from a re-analysis of the deposited data

How the results depend on the processing

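Of the 8 genes tested with mitoxantrone, 5 passed in the fit reported. That number was 7 with library weights, where PLAU and TIMP2 also passed, 3 with quantile normalisation, 3 and 2 with a replicate block from title and from column numbers, 2 after adjustment for exon length, and 1 to 5 without any one library. With pyrimethamine 0 passed, and 0 to 4 without any one library. Between the compounds 1 passed, beside 2 with upper-quartile scaling, 3 with edgeR, 3 with DESeq2, and 0 with quantile normalisation, library weights, the 2 groups compared alone or either replicate block, and 0 to 6 without any one library. Of the related genes, 27 passed with mitoxantrone, beside 45 with library weights, 43 with the 2 groups alone and 20 to 43 without any one library. For pyrimethamine it was 2, beside 1 with a pseudocount of 0.5 or 10 or a mean of at least 50, 0 with no filter, quantile normalisation, library weights, 2 groups alone or either replicate block, 11 with DESeq2, 5 after the length adjustment and 0 to 33 without any one library. Between the compounds it was 26, beside 7 with library weights, 0 with 2 groups alone or either replicate block and 0 to 41 without any one library. Over all genes, 553 passed with pyrimethamine, beside 291 with no filter, 322 with quantile normalisation, 1738 with DESeq2, 953 after the length adjustment, 0 with library weights, 2 groups alone or either replicate block, and 10 to 7571 without any one library. The number over all genes with mitoxantrone was 8430, beside 12414 with library weights, 11834 with 2 groups alone and 5687 to 11841 without any one library. Between the compounds that number was 6299, beside 884 with library weights and 0 with 2 groups alone or either replicate block. It was 0 to 11638 without any one library. The ranges without any one library include fits with 1 pyrimethamine library, which must assume that this group varies like the others. Libraries of different groups with the same title or column number deviated with correlations of -0.41 to 0.127. These deviations are from means of 2 or 3 libraries, so they cannot decide whether the numbers pair the libraries. Upper-quartile scaling moved the median log2 fold change of all genes with pyrimethamine to 0.04, against -0.08, and edgeR moved it to 0.06; upper-quartile scaling split the calls into 501 higher and 139 lower, against 352 and 201. Between the compounds edgeR gave 2512 higher and 4201 lower, against 3247 and 3052.

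Signs turned for these values. With pyrimethamine, TIMP1 (-0.03) was 0.09 with upper-quartile and with quantile scaling, 0.03 with edgeR, 0.00 with DESeq2, 0.01 with the block from title numbers, 0.02 after the length adjustment and -0.35 to 0.30 without any one library. Without any one library MMP14 (0.08) ranged over -0.81 to 0.98, TIMP2 (0.32) over -0.18 to 0.82 and MMP2 (0.28) over -0.37 to 0.93, the low end being without pyrimethamine replicate 1 and the high end without replicate 2, the other way round for TIMP1. With mitoxantrone, PLAUR (0.05) was -0.04 with library weights and -0.09 to 0.13 without any one library. After the length adjustment TIMP1 was -0.07, TIMP2 0.09, PLGRKT -0.09, ADAM17 0.03 and DYNC2H1 0.36, and with quantile normalisation TMEM123 was -0.32 and DYNC2H1 0.06. Between the compounds MMP1 (-0.18) was 0.03 with edgeR, 0.12 with DESeq2, 0.37 with library weights, 0.29 with the block from title numbers, 0.04 without pyrimethamine replicate 2, and -0.78 to 0.36 without any one library. MMP10 (0.16) was -0.09 with edgeR, -0.02 with DESeq2, -0.59 after the length adjustment and -0.63 to 0.96 without any one library, TIMP1 was -0.09 after the length adjustment, and TIMP2 (-0.49) was -0.99 to 0.01 without any one library. The cause was not tested. Depth limits MMP3 and MMP9, at 0 to 7 reads in a library.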
